A study of Mus musculus with 2 samples.

Results

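Alpi, Akp3, Enpp3 and Enpp7 encode enzymes of the small intestine brush border that cut phosphate bonds. They were chosen by name, as 4 of the 25663 genes of the deposited table, and were described over the 11871 cells of that table. Brush border enzymes sit on the microvilli of enterocytes, the absorptive cells of the gut, with their active sites facing the lumen. Alpi is intestinal alkaline phosphatase and Akp3 is the related duodenal isozyme. Both are held in the membrane by a glycosylphosphatidylinositol (GPI) anchor and remove phosphate from luminal nucleotides and from bacterial lipopolysaccharide. Enpp3, a nucleotide pyrophosphatase, splits extracellular nucleotides into nucleoside monophosphates, and Enpp7, alkaline sphingomyelinase, releases phosphocholine from dietary sphingomyelin.

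The study profiled sorted small intestine epithelium of mouse embryos at E18.5 by single-cell RNA sequencing. There was 1 library for each genotype, Control and Tet3 knockout, and each pooled cells of 2 embryos. The knockout carries a germline deletion of exon 5 of Tet3, a dioxygenase that oxidises methylated cytosine in DNA. The allele was made in embryonic stem cells of mixed C57BL6/J and C3H/HeJ origin and backcrossed to C57BL6/JRccHsd for 5 or more generations, and the strain label of both libraries is C57BL6/J. Cells were fixed in methanol and read by 10x Genomics 3' chemistry, which tags each captured transcript near its 3' end with a unique molecular identifier (UMI).

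Barcodes of the table end in a suffix of 0 or 1, and the cells were split by it into set 0, of 5933 cells, and set 1, of 5938. Which genotype a suffix stands for is not stated in the labels, so the sets were given none and Control was not compared with Tet3 knockout. With 1 library of each kind there are no replicates, so no p-values are given. Levels are means over cells of the deposited signal, which sums to 10000 in each cell and is called CP10K here. Recovered depth had a median of 22382 UMIs per cell, with 23657 in set 0 and 22375 in set 1 without shared barcodes. Intervals are 95% intervals, exact Poisson for summed UMIs and exact Clopper-Pearson for shares of cells, and they cover counting error only. The sets shared 818 barcodes. In 765 of these pairs (93.5%) both cells lay in the same Fabp1 and Fabp6 group, and Fabp6 correlated across the pairs with a Pearson's r of 0.99. Set 1 is therefore given without them (5120 cells), which left 11053 cells in all.

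Cells were grouped by Fabp1, the liver-type fatty acid binding protein of enterocytes (below 40, 40 to 100 and above 100 CP10K), and by Fabp6, the bile acid binding protein of the ileum (below 10, 10 to 50 and above 50 CP10K). The groups matched an enterocyte gradient in other markers. In set 0 at Fabp6 below 10, Mki67 or Top2a, genes of dividing cells, was found in 51.4% of cells with Fabp1 below 40, in 28.8% at 40 to 100 and in 7.23% above 100. The summed level of 5 epithelial markers was 22.3 to 43.1 CP10K over all groups with cells. Mesenchymal markers summed to at most 0.542 CP10K and endothelial markers to at most 0.0868 CP10K. Goblet markers summed to 12.1 CP10K in the set 0 group low in both genes and to 0.814 CP10K where Fabp1 was above 100 and Fabp6 below 10, and enteroendocrine markers to 9.55 and 0.857 CP10K. Erythroid markers summed to at most 1.44 CP10K, in set 0 cells with Fabp1 below 40 and Fabp6 at 10 to 50. At Fabp6 below 10, the summed immune markers of set 0 were at 0.374, 0.316 and 1.89 CP10K in the low, middle and high Fabp1 groups, and in each of these groups they were higher at higher Fabp6, up to 3.18 CP10K. Csf1r made up nearly all of the highest sum, at 3.18 CP10K in set 0 cells with Fabp1 above 100 and Fabp6 above 50, where Lyz2 and Cd79a were at 0 and C1qa was at 0.000458 CP10K. The part of these other markers in the results was not tested.

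The 4 genes lie at 3 loci of the mouse genome, build GRCm38, with coordinates from GENCODE M21. Alpi (ENSMUSG00000079440, chr1:87098002-87101606, minus strand, 11 exons) and Akp3 (ENSMUSG00000036500, chr1:87124973-87127912, plus strand, 11 exons) are neighbours on chromosome 1. Enpp3 (ENSMUSG00000019989, 25 exons) lies on the minus strand at chr10:24772406-24842823, and Enpp7 (ENSMUSG00000046697, 5 exons in the coding transcript used) on the plus strand at chr11:118988188-118993221. The 250 bases before each start that RefSeq annotates on GRCm38.p6 are printed. They were chosen because the means of Alpi, Enpp3 and Enpp7 correlated over the Fabp1 and Fabp6 groups, while Akp3 was at the floor. Capitals mark matches on either strand to TTTATNG, a motif of CDX factors, to AGATAA, bound by GATA factors, to GTTAAT, part of the HNF1 motif, to CAAAGTCC, an HNF4 motif, and to CACCC, bound by KLF factors. The shorter CAAAGTC was added after the sequences had been seen and overlaps the HNF4 motif. The windows are chr1:87101607-87101856 (minus strand), chr1:87124704-87124953 (plus), chr10:24836196-24836445 (minus) and chr11:118987931-118988180 (plus). The RefSeq start of Enpp3 lies inside the GENCODE gene given above, and so does its window.
Alpi: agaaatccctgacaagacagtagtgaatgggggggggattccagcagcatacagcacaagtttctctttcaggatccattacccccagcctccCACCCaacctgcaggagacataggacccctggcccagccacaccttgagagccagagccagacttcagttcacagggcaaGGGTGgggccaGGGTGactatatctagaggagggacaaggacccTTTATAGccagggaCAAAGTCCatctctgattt
Akp3: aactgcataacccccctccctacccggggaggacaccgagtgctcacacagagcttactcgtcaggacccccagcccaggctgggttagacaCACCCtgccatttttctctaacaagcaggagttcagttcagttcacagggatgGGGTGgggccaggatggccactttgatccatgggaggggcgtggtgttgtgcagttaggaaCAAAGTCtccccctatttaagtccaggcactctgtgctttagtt
Enpp3: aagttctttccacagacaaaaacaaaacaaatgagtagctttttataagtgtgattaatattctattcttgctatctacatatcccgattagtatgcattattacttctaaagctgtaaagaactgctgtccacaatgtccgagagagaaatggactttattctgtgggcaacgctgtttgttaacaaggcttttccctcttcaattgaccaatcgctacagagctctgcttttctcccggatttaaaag
Enpp7: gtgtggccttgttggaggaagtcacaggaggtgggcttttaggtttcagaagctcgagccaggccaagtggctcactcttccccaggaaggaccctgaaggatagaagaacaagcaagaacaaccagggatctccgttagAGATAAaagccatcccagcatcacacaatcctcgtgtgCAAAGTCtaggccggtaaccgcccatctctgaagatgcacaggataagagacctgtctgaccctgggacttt

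The Alpi window held TTTATNG at -33 to -27 and CAAAGTCC at -19 to -12, counted from the first transcribed base, and 3 matches to CACCC. Of 32851 mouse windows of the same length, 9.81% held TTTATNG, 1.20% held CAAAGTCC and 52.0% held CACCC. The added letters CAAAGTC were found in 3 of the 4 windows, at -19 in Alpi, -44 in Akp3 and -72 in Enpp7, and in 3.84% of all windows. Enpp7 also held AGATAA at -110 to -105, which 9.99% of all windows held. The Enpp3 window held none of these letters, which says only that they are absent from these bases. The Alpi and Akp3 windows were identical at 157 of 293 aligned columns (53.6%), against 47.2% to 50.5% for the other pairs. A match is a description of letters and not a binding site.

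Alpi was found in most cells of both sets. Its mean was 2.62 CP10K in set 0 and 2.13 CP10K in set 1. After each cell was thinned to 8000 UMIs, 76.7% of set 0 cells (interval 75.6% to 77.7%) and 72.2% of set 1 cells (71.0% to 73.5%) kept an Alpi UMI, against 90.1% and 89.4% before thinning. Alpi was present even in progenitor-like cells. In the cluster led by Olfm4 and cell cycle genes, 31.5% of 854 thinned cells held an Alpi UMI (median depth 17761 UMIs), and how much of this is free RNA was not tested.

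By Fabp1, Alpi was graded. At Fabp6 below 10, its mean in set 0 was 0.799, 1.86 and 3.23 CP10K in the low, middle and high Fabp1 groups, and in set 1 it was 1.05, 2.01 and 2.82 CP10K. With 0.01 CP10K added to both means, as in all folds and log2 ratios of means below unless stated, the middle group lay 2.31-fold above the low group in set 0 and 1.91-fold in set 1. Over finer steps, Alpi in set 0 stood at 0.683 CP10K where Fabp1 was under 10, at 1.31 CP10K from 20 to 40 and at 2.02 CP10K from 70 to 100. It then levelled off, at 3.28 CP10K for Fabp1 of 200 to 250 and 3.17 CP10K above 400. Alpi was higher at each step in both sets up to 250 CP10K of Fabp1.

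Fabp6 marked a further group of cells with Alpi. Among set 0 cells with Fabp1 below 40, mean Alpi was 0.799 CP10K at Fabp6 below 10, 1.78 CP10K at 10 to 50 and 2.78 CP10K above 50. Within cells of Fabp1 above 100, Alpi in set 0 was 3.23, 3.77 and 3.90 CP10K in the same Fabp6 groups, and in set 1 it was 2.82, 3.02 and 3.47 CP10K, the last over 27 cells. The highest group over the lowest, of those with at least 20 cells, was 4.88-fold in set 0 and 3.31-fold in set 1, with nothing added. In both sets the lowest was the group low in both genes and the highest was the group high in both.

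**Figure D1:**
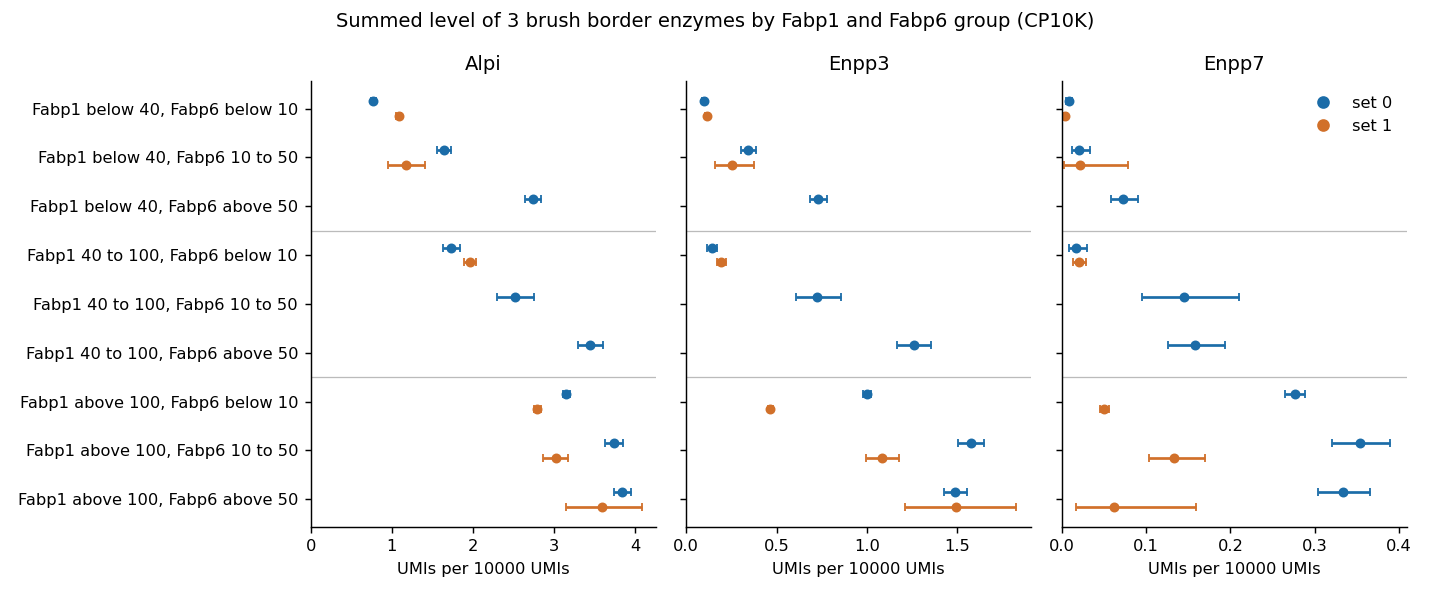
Summed UMIs per 10000 UMIs of Alpi, Enpp3 and Enpp7 (x axes) in each Fabp1 and Fabp6 group (y axis, CP10K), for set 0 (blue) and set 1 without shared barcodes (orange), with exact Poisson 95% intervals; groups under 20 cells are left out. Alpi is graded over the groups, while in set 0 Enpp3 and Enpp7 are low in the groups with Fabp6 below 10 until Fabp1 passes 100. In set 1 at Fabp6 below 10 the step is smaller. Enpp3 is at 0.114, 0.194 and 0.466 and Enpp7 at 0.00355, 0.0204 and 0.0504 in the low, middle and high Fabp1 groups.

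Akp3 was at the floor. Over both sets, 3 cells held it, with 1 UMI each, 1 of them in set 0 and 2 in set 1, where 1 of these had a shared barcode. All 3 lay in the group with Fabp1 above 100 and Fabp6 below 10, at 168, 153 and 169 CP10K of Fabp1, and held 7, 5 and 1 Alpi UMIs. After thinning, none of 5899 set 0 cells and none of 5076 set 1 cells held Akp3, which allows a share of up to 0.0625% and 0.0726%. The count of 3 UMIs among 303757899 corresponds to 9.88e-05 per 10000 UMIs (interval 2.04e-05 to 2.89e-04), and no comparison of groups was made.

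How Akp3 was annotated bears on such a count. In GENCODE M21 its coding transcript is 1680 bases long, of which 3 lie outside the coding sequence, and RefSeq places the 3' end of the gene 816 bases further on. For Alpi and Enpp7 both annotations end at the same base. For Enpp3, on the minus strand, the 3' end is at 24773814 in RefSeq and further on, at 24772406, in GENCODE. The part of this in the Enpp3 count was not tested. A 3' assay reads transcripts near the end. The annotation the authors counted against is not given in the sources used here, although 25620 of the table's 25663 symbols are gene names of GENCODE M21, and its part in the Akp3 count was not tested. Reads could also be shared between paralogs. The Alpi and Akp3 transcripts have 80 stretches of 31 bases in common, none of them in the last 500 bases of Alpi. Whether any fall near the end of Akp3 was not examined. Akp3 and Alppl2 have 16 such stretches in common, and 10 fall in the last 500 bases of Akp3. The part of shared reads in the Akp3 count was not tested. The other alkaline phosphatases of the table were as scarce. Alppl2, the embryonic isozyme, had 13 UMIs and Alpl, the tissue-nonspecific enzyme, had 5 in all cells, so that of the 4 genes of this family in the table only Alpi passed 0.2 CP10K.

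Enpp3 was found mainly in cells high in Fabp1 or Fabp6. Its mean was 0.816 CP10K in set 0 and 0.329 CP10K in set 1, and 33.9% (interval 32.7% to 35.1%) and 16.4% (15.4% to 17.4%) of thinned cells held a UMI. Before thinning, the shares were 49.96% and 28.5%. In progenitor-like clusters, the thinned share was 2.81% and 4.63%.

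Unlike Alpi, Enpp3 had nearly the same mean in the low and middle Fabp1 groups of set 0. At Fabp6 below 10 its mean in set 0 was 0.137, 0.142 and 1.02 CP10K in the low, middle and high Fabp1 groups, and in set 1 it was 0.117, 0.185 and 0.441 CP10K. The middle group over the low group was 1.03-fold in set 0 and 1.54-fold in set 1, and the high group over the middle group was 6.78-fold and 2.31-fold, all after adding 0.01 CP10K. From summed UMIs, the middle group of set 0 exceeded the low group by 0.50 on the log2 scale (interval 0.15 to 0.84). In finer steps of set 0, Enpp3 was 0.112 to 0.166 CP10K in all 5 steps of Fabp1 below 100, then 0.452 CP10K at 100 to 150 and 1.22 CP10K at 250 to 300. Above 400 CP10K of Fabp1 it was lower again, at 0.850 CP10K in set 0 (414 cells) and 0.315 CP10K in set 1 (26 cells). The 45 set 0 cells just under the limit of 100 had 0.202 CP10K and the 30 cells just above it had 0.507 CP10K.

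Enpp3 was also high where Fabp6 was high and Fabp1 was not. In set 0 cells with Fabp1 below 40, Enpp3 was 0.137, 0.371 and 0.727 CP10K in the low, middle and high Fabp6 groups. With Fabp1 at 40 to 100 it was 0.142 CP10K at Fabp6 below 10 and 1.43 CP10K above 50, a 9.47-fold difference after adding 0.01 CP10K to both. Set 1 gave no value for these groups of high Fabp6, because all 66 and 32 of its cells there carried shared barcodes. Within cells of Fabp1 above 100, Enpp3 in set 0 was 1.02, 1.61 and 1.51 CP10K by Fabp6 group, and in set 1 it was 0.441, 1.01 and 1.36 CP10K. On the log2 scale, the group above 50 exceeded the group below 10 by 0.56 in set 0 and 1.6 in set 1. Enpp3 was higher already from Fabp6 of 2 to 5 CP10K, at 1.40 CP10K in set 0 against 0.965 CP10K from 1 to 2, and at 0.763 against 0.484 CP10K in set 1.

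**Figure D2:**
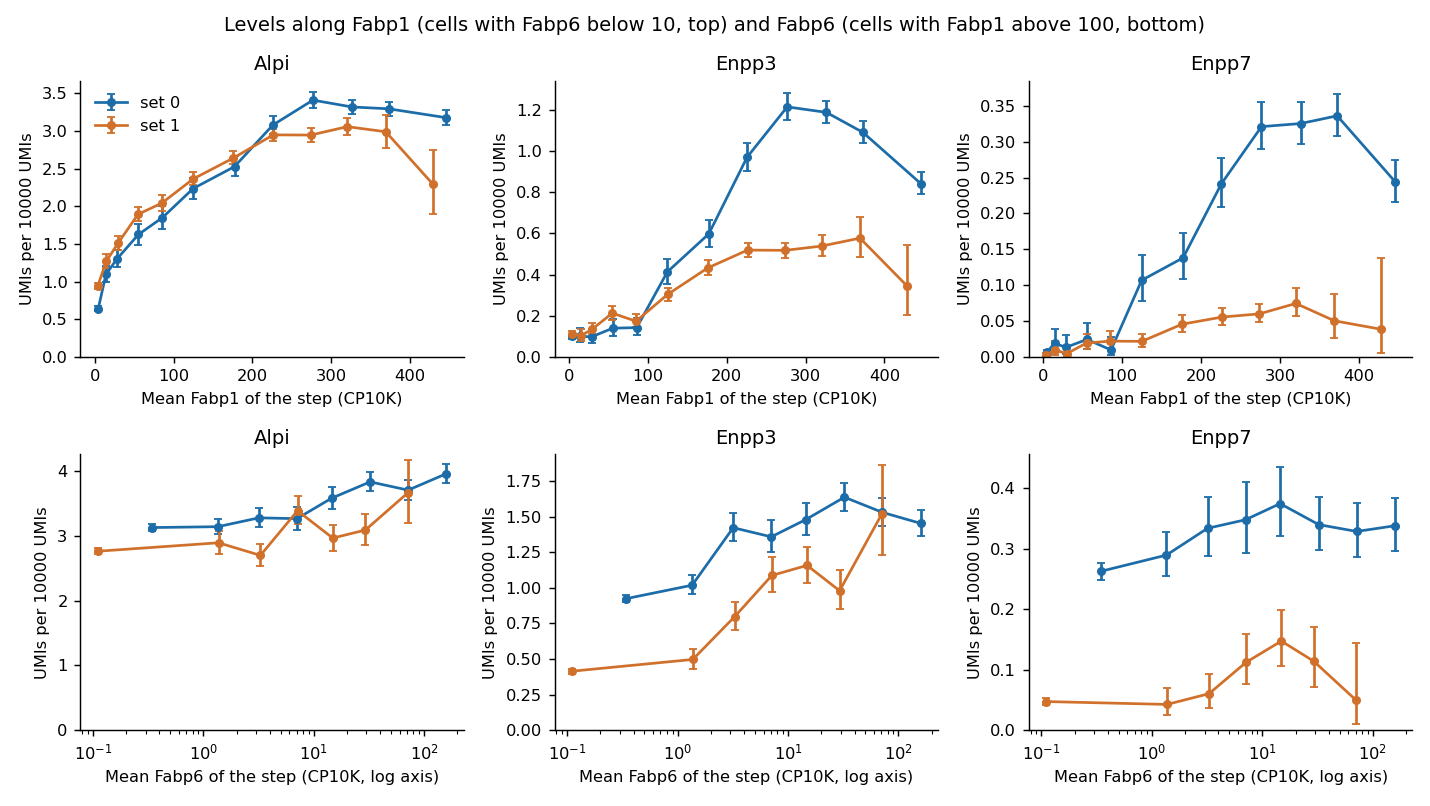
Summed UMIs per 10000 UMIs of the 3 genes (y axes) against the mean Fabp1 of each step in cells with Fabp6 below 10 (top) and the mean Fabp6 of each step in cells with Fabp1 above 100 (bottom, log axis), for set 0 (blue) and set 1 without shared barcodes (orange), with exact Poisson 95% intervals. Alpi is higher at each step of Fabp1 up to 250 CP10K. In set 0, Enpp3 and Enpp7 stay low until about 100 CP10K, and the sets part above it. In set 1, Enpp7 is at 0.0218 for Fabp1 of 70 to 100 and 0.0215 for 100 to 150, and Enpp3 is at 0.135 for 20 to 40 and 0.212 for 40 to 70.

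Enpp7 was found mostly in cells high in Fabp1. Its mean was 0.189 CP10K in set 0 and 0.0331 CP10K in set 1, and 12.5% (interval 11.7% to 13.4%) and 2.25% (1.86% to 2.69%) of thinned cells held a UMI, against 27.7% and 6.60% before thinning. In the progenitor-like clusters, the thinned share was 0.351% and 1.49%. At Fabp6 below 10, the low and middle Fabp1 groups had 0.773% and 0.823% in set 0 and 0.235% and 0.923% in set 1, values under or between these that rest on 10, 2, 4 and 5 cells. How much of them is free RNA was not tested.

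At Fabp6 below 10, mean Enpp7 in set 0 was 0.0113, 0.0178 and 0.285 CP10K in the low, middle and high Fabp1 groups, and in set 1 it was 0.00341, 0.0191 and 0.0488 CP10K. The low and middle groups of set 0 rest on 26 and 11 UMIs, and the interval of their summed log2 ratio included 0 (1.01, interval -0.15 to 2.08). In set 1 the middle group was higher, with 30 UMIs against 14 and a summed log2 ratio of 2.52 (1.56 to 3.55). Above the limit of 100, Enpp7 in set 0 was at 0.123 CP10K for Fabp1 of 100 to 150, at 0.352 CP10K for 350 to 400 and at 0.25 CP10K above 400. The steps of set 1 were at 0.0219 to 0.0754 CP10K. By Fabp6, in cells with Fabp1 above 100, set 0 had 0.285, 0.361 and 0.345 CP10K and set 1 had 0.0488, 0.132 and 0.0621 CP10K, the last from 4 UMIs. In set 0 cells with Fabp1 below 40 and Fabp6 above 50, Enpp7 was at 0.0760 CP10K. At Fabp1 of 40 to 100 in set 0, it was 0.0178, 0.222 and 0.186 CP10K in the low, middle and high Fabp6 groups, and 28 of 187 thinned cells held it in the last, against 467 of 2543 at Fabp1 above 100 and Fabp6 below 10.

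Across all genes, the members stood among the larger differences by Fabp1. Genes were compared where the mean was at least 0.2 CP10K in 1 or both groups, and a gene was counted as higher or lower past 2-fold, with 0.01 CP10K added to both means. With Fabp1 above 100 over below 40, at Fabp6 below 10, 1064 of 5736 genes in set 0 and 621 of 5682 in set 1 were at least 2-fold lower. The median over all was -0.21 and -0.16 on the log2 scale. At least 2-fold higher were 508 genes (8.86%) in set 0 and 300 (5.28%) in set 1. All 3 members past the minimum in set 0 were among them, with log2 ratios of 2.0 (Alpi), 2.80 (Enpp3) and 3.79 (Enpp7). In set 1, Alpi at 1.42 and Enpp3 at 1.83 were among them, and Enpp7, at 2.13, was under the minimum. With a pseudocount of 0.1 CP10K, Enpp7 had 1.79 in set 0 and 0.53 in set 1, the latter under 2-fold. In set 0, 18 genes had a larger ratio than Enpp7, 60 had one larger than Enpp3 and 143 had one larger than Alpi. From summed UMIs, the log2 ratio of Enpp3 was 3.33 in set 0 (interval 3.17 to 3.50) and that of Enpp7 was 5.04 (4.48 to 5.66), with nothing added to the rates.

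With Fabp6 above 50 over below 10, within Fabp1 above 100, 2.02% of 5094 genes in set 0 and 3.93% of 5399 in set 1 were at least 2-fold higher. At least 2-fold lower were 87 and 185 genes. No member passed 2-fold in set 0. In set 1, where the high group has 27 cells, Enpp3 did, and 48 genes had a larger ratio. Alpi differed by 0.27 and 0.30 on the log2 scale and Enpp7 by 0.26 and 0.29. For Enpp7 in set 1 this value was -0.071 without cells holding Mki67 or Top2a and 1.54 with shared barcodes kept.

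The sets differed most in Enpp7, in cells high in Fabp1. In the group with Fabp1 above 100 and Fabp6 below 10, Enpp7 was 0.285 CP10K in set 0 and 0.0488 CP10K in set 1, a 5.02-fold difference after adding 0.01 CP10K to both. On the same scale, Enpp3 was 2.28-fold and Alpi 1.15-fold higher in set 0 there. In the group low in both genes, Alpi went the other way, at 0.799 CP10K in set 0 and 1.05 CP10K in set 1. The 336 shared cells of the high Fabp1 group in set 1 had 0.211 CP10K of Enpp7, and with them set 1 was at 0.0675 CP10K. Genotype, embryo pool and library cannot be told apart in such a difference, and it was not tested.

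The cells behind the high Fabp1 group came from different clusters in each set. Clustering was run on all cells without the 4 genes and without batch correction. In set 0, cluster 13 (led by Apcs and Insl5) held 36.9% of that group, cluster 8 (Reg1, Reg3g) 31.7% and cluster 14 (Mirg, Car5a) 13.0%. In set 1, cluster 12 (Aldh1a1, Cyp2j5) held 38.5%, cluster 16 (Serpina1a, Cyp2j5) 34.7% and cluster 9 (Ctrb1, Reg1) 13.0%. Clusters 12 and 16 were 0.743% and 0.373% set 0 cells. Of the cells used, 949 of 961 in cluster 13, 873 of 890 in cluster 8 and 576 of 580 in cluster 14 were of set 0. Each of these clusters may therefore be a library and not a cell type.

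Within each set, high Fabp1 cells split into clusters of low and of higher Enpp3. In set 0 cells of that group, mean Enpp3 was 0.132 CP10K in cluster 8, 1.40 CP10K in cluster 13 and 2.86 CP10K in cluster 14. In set 1 it was 0.120 CP10K in cluster 12 and 0.974 CP10K in cluster 16. Enpp7 was split the same way, at 0.0317, 0.435 and 0.708 CP10K in clusters 8, 13 and 14 of set 0, and at 0.00740 and 0.115 CP10K in clusters 12 and 16 of set 1. Over all their cells, clusters 8 and 12 held Enpp3 in 9.91% and 8.52% of thinned cells, above the 4.63% and 2.81% of the progenitor-like clusters 2 and 4. Alpi was less uneven, at 2.45, 3.75 and 4.65 CP10K in set 0 and 2.49 and 3.56 CP10K in set 1.

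Over all cells used, Enpp3 was lowest in cluster 9, at 0.0227 CP10K over 1295 cells, although Alpi there was at 1.68 CP10K. It was highest in cluster 14, at 2.65 CP10K, where Alpi (4.54 CP10K) and Enpp7 (0.643 CP10K) were highest too among clusters of at least 20 cells. Enpp3 and Enpp7 are themselves among the leading genes of that cluster, although clustering did not use them. Cluster 1, led by Fabp6, had 1.63 CP10K of Enpp3 with 92.1 CP10K of Fabp1. Clusters 1 and 14 were nearly all of set 0, at 644 of 646 and 576 of 580 cells used, so these levels also carry the difference between the sets. The progenitor-like clusters 2 and 4 had 0.584 and 0.559 CP10K of Alpi and 0.0670 and 0.0299 CP10K of Enpp3. All 12 progenitor markers, which are cell cycle genes with Olfm4 and Lgr5, lay above the mean of all cells there.

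Enpp3 was also found in goblet-like cells of low Fabp1. Cluster 5, whose leading genes are Spink4, Agr2 and Fcgbp of goblet cells together with defensins, had 0.963 CP10K of Enpp3 over 189 cells. Its 116 cells with Fabp1 below 40 had 0.702 CP10K of Enpp3, 0.763 CP10K of Alpi and 0.0185 CP10K of Enpp7. Their Enpp3 was 0.438 per 10000 summed UMIs, the median cell had none, and 28.0% of 93 thinned cells held a UMI. In the group low in Fabp1 and Fabp6, cells of cluster 5 had 0.833 CP10K of Enpp3 in set 0 (51 cells) and 0.733 CP10K in set 1 (38 cells), against 0.0216 and 0.0211 CP10K in the proliferating cluster 2. Larger clusters of this group that are not goblet-like held Enpp3 too. Cluster 0 (Guca2a, Tmigd1) had 0.422 CP10K in set 0 (160 cells), and cluster 17 (Bex2, Afp) had 0.356 CP10K in set 1 (385 cells). Clusters 3, 4 and 9 had 0.0208 to 0.0462 CP10K in set 0 and 0.00987 to 0.0172 CP10K in set 1. A second secretory cluster, led by the hormone genes Gip and Pyy but also by Sparc and Acta2 of mesenchyme and left unnamed, had 0.602 CP10K of Enpp3 over 68 cells. Without clusters 5, 6 and 15, an alternative chosen after seeing the data, the log2 ratio of Enpp3 by Fabp1 was 3.24 in set 0 and 2.07 in set 1, against 2.80 and 1.83 with them.

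The highest single Alpi values came from cells of very low depth. Cluster 15 had 7 cells, of which 4 were used, with a median of 2089 UMIs in these 4. They held 11 Alpi UMIs, a mean of 14.95 CP10K, with Fabp1 and Fabp6 at 0, and the cluster was left unnamed.

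**Figure D3:**
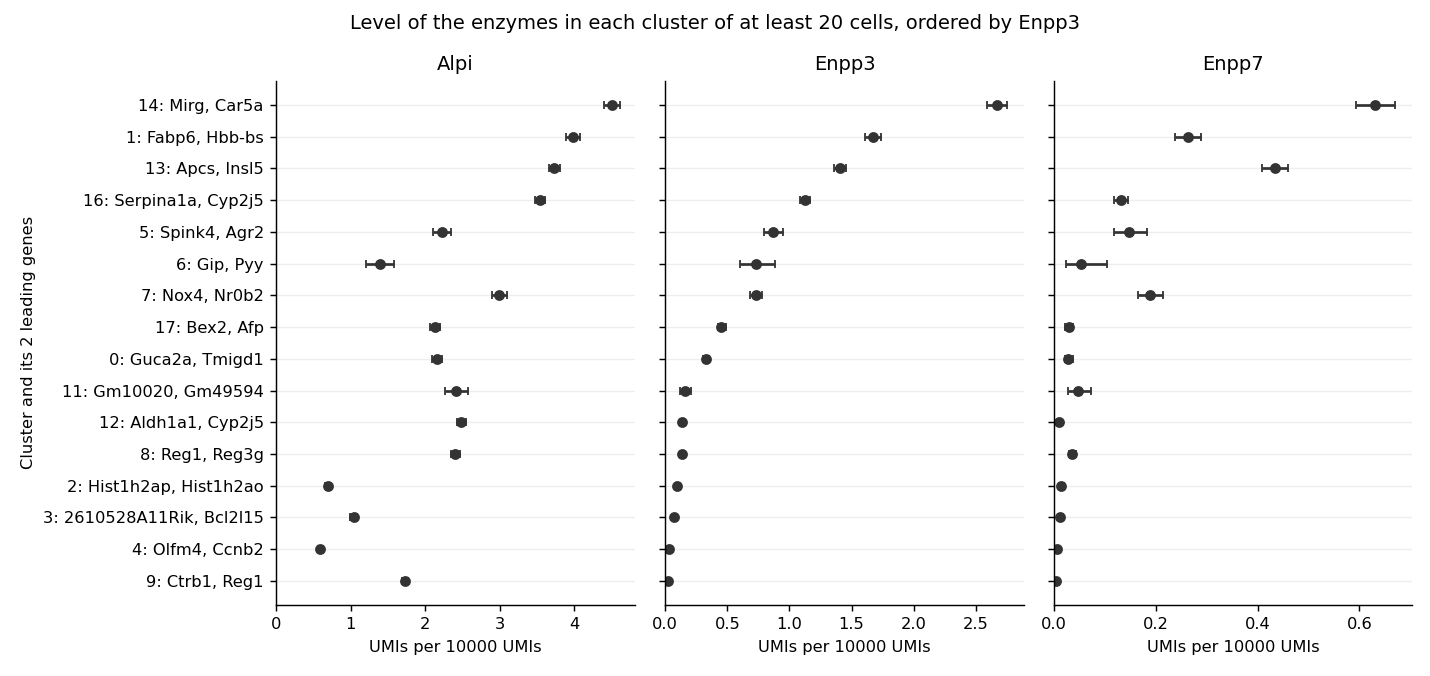
Summed UMIs per 10000 UMIs of Alpi, Enpp3 and Enpp7 (x axes) in each cluster of at least 20 cells used (y axis, cluster number and 2 leading genes), with exact Poisson 95% intervals. Alpi is present in every cluster shown, while Enpp3 and Enpp7 are low in several clusters that hold Alpi, such as 8 and 12. Clusters 1, 8, 13 and 14 hold mostly set 0 cells and clusters 12 and 16 mostly set 1 cells.

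Single cells with Enpp3 held Enpp7 more often at Fabp1 above 100 and Fabp6 below 10. In set 0, 32.3% of 1040 thinned cells with an Enpp3 UMI held Enpp7 (interval 29.5% to 35.2%), against 8.72% of 1503 cells without one (7.34% to 10.3%). In set 1 the shares were 9.88% of 567 and 1.24% of 2013. At Fabp6 of 10 to 50 the shares were 29.95% of 217 and 12.5% of 144 in set 0, and 19.7% of 76 and 6.45% of 93 in set 1. At Fabp6 above 50 in set 0 they were closer, where 26.8% of 276 cells with Enpp3 and 25.6% of 168 cells without it held Enpp7. The difference between the Fabp6 groups was not tested. Before thinning, cells with and without Enpp3 had median depths of 26244 and 24383 UMIs at Fabp6 below 10, and of 26427 and 26209 UMIs above 50.

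Over the 15 groups with at least 20 cells, the log2 means of the members correlated with a Pearson's r of 0.90 for Alpi and Enpp3, 0.88 for Alpi and Enpp7 and 0.91 for Enpp3 and Enpp7. The groups share libraries and were cut from 2 genes of the same cells, so these values are descriptions. The genes most like Alpi by this measure, among 5050 genes that passed the minimum of 0.2 CP10K over all cells, were Stx7, Acot4, Guca2b, Spns3 and Tmc5, with r of 0.97 to 0.98. Those most like Enpp3 were Mfge8, Bst1, Pdzk1, Lrp10 and Tango2, also at 0.97 to 0.98. Bst1 encodes a GPI-anchored enzyme that cleaves NAD, and Pdzk1 encodes a scaffold of brush border transporters. Those most like Enpp7 were Tmem19, Prr13, Nradd, Parp9 and Mertk, with r of 0.94 to 0.96, and 2 of these 5 were kept with a pseudocount of 0.1 CP10K.

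Few related enzymes passed the minimum. Of the 5 other Enpp genes of the table, only Enpp5 passed the minimum, with log2 ratios by Fabp1 of 0.94 in set 0 and 0.44 in set 1, under 2-fold. Enpp1, which makes pyrophosphate outside cells, averaged 0.120 CP10K over all cells. In the list of extracellular nucleotide and nucleoside breakdown, 2 of 6 genes past the minimum in set 0 and 1 of 6 in set 1 were at least 2-fold higher in high Fabp1 cells. None of the list was lower. The shares higher over all genes were 8.86% in set 0 and 5.28% in set 1. Bst1 was at 3.70 and 2.54 on the log2 scale, Entpd7 at 1.15 and 0.99, Pnp at 0.40 and 0.36 and Dpp4 at 0.51 and 0.19. The list is broader than its name, since Dpp4 is a peptidase and Pnp and Entpd7 lie inside cells, and the 6 genes include them. Nt5e, the ectonucleotidase that acts on nucleoside monophosphates, was under the minimum. Slc28a2, a nucleoside uptake transporter of enterocytes, differed by 0.44 and 0.41.

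For sphingolipids, the step after Enpp7 is the removal of the fatty acid by neutral ceramidase, encoded by Asah2. Asah2, singled out after its values were seen, was at 0.102 CP10K in low and 1.87 CP10K in high Fabp1 cells of set 0, and at 0.184 and 1.59 CP10K in set 1. Its log2 ratios were 4.07 and 3.05. Of the 9 sphingolipid genes other than Enpp7 past the minimum, 3 in set 0 and 2 in set 1 were at least 2-fold higher, against 8.86% and 5.28% of all genes. None of the 9 was lower, and their medians were 0.92 and 0.36. Among them, the lysosomal enzymes Neu1, Glb1 and Hexa had log2 ratios of 0.69 to 0.97 in set 0 and 0.17 to 0.55 in set 1.

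The phosphate released at the brush border is taken up by sodium-coupled carriers. Of phosphate transporters, 2 of 3 past the minimum in set 0 and 1 of 4 in set 1 were at least 2-fold higher by Fabp1. Over all genes, 8.86% and 5.28% were. Slc34a3 had log2 ratios of 2.03 and 1.20 and Slc34a2, the main intestinal carrier, 1.01 and 0.82.

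Genes that build the GPI anchor were mostly under 2-fold. By Fabp1, none of the 12 genes past the minimum was 2-fold higher in high Fabp1 cells of either set, 1 was 2-fold lower in set 0 (Pgap2, at -1.19), and the list medians were -0.35 and -0.37, against -0.21 and -0.16 over all genes, of which 8.86% and 5.28% were 2-fold higher. By Fabp6, the list medians were 0.24 and 0.26, with 1 of 11 genes 2-fold higher in set 0 (Pigh, at 1.12) and none of 15 in set 1, where 1 was lower (Pgap2, at -1.76). Over all genes by Fabp6, the medians were 0.07 and 0.01. Of 5094 genes in set 0, 2.02% were 2-fold higher and 87 genes were lower. Of 5399 in set 1, 3.93% were higher and 185 genes were lower. In a list drawn up for other GPI-anchored surface proteins, 1 of 7 in set 0 and 1 of 6 in set 1 was 2-fold higher by Fabp1. It was Dpep1, a dipeptidase, at 1.92 and 2.12. In set 1, 1 was 2-fold lower (Ceacam1, at -1.05). Ceacam1 spans the membrane and is not GPI-anchored, and both counts of genes include it. Folr1, the most abundant gene of this list, differed by 0.81 and 0.15 by Fabp1 and by 1.16 and 1.09 by Fabp6.

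Of a list of intestinal transcription factors, 1 of 10 past the minimum in set 0 and 1 of 9 in set 1 were 2-fold higher by Fabp1. Both counts are near the shares over all genes, 8.86% and 5.28%. The higher factor was Creb3l3, at 2.37 and 1.79, and none of the list was 2-fold lower. Cdx1, a caudal homeobox factor, was at -0.95 and -0.76, Cdx2 differed by -0.38 and -0.18, and Gata6 by 0.43 and 0.51. The list medians were 0.00 and -0.05. Klf4 was 0.54 higher by Fabp6 in set 0 and 1.96 higher in set 1, where the high group has 27 cells, on the log2 scale. Tlr4, the receptor for the lipopolysaccharide that Alpi detoxifies, was under the minimum.

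Among other brush border hydrolases, 6 of 12 past the minimum were at least 2-fold higher by Fabp1 in each set, against 8.86% and 5.28% of all genes. None of these hydrolases was 2-fold lower, and the list medians were 1.14 and 0.78. Lactase (Lct) had log2 ratios of 3.61 and 2.83 and Ace 3.05 and 2.38, while Anpep, an aminopeptidase, had -0.06 and 0.35. By Fabp6, 2.02% of 5094 genes in set 0 and 3.93% of 5399 in set 1 were 2-fold higher, and 87 and 185 genes were lower. Of the hydrolases, 3 of 12 in set 0 and 1 of 12 in set 1 were higher and 1 was lower in each. The lower one was Mme, neprilysin, at -2.95 and -1.14, chosen here after its values were seen. Alpi, Enpp3 and Enpp7 thus lay with Lct and Ace by Fabp1, and none of these 3 means was lower at high Fabp6 as that of Mme was. For Enpp7 in set 1, the high Fabp6 group holds only 4 UMIs, and the interval of its summed log2 ratio included 0 (-1.58 to 1.67).

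**Figure D4:**
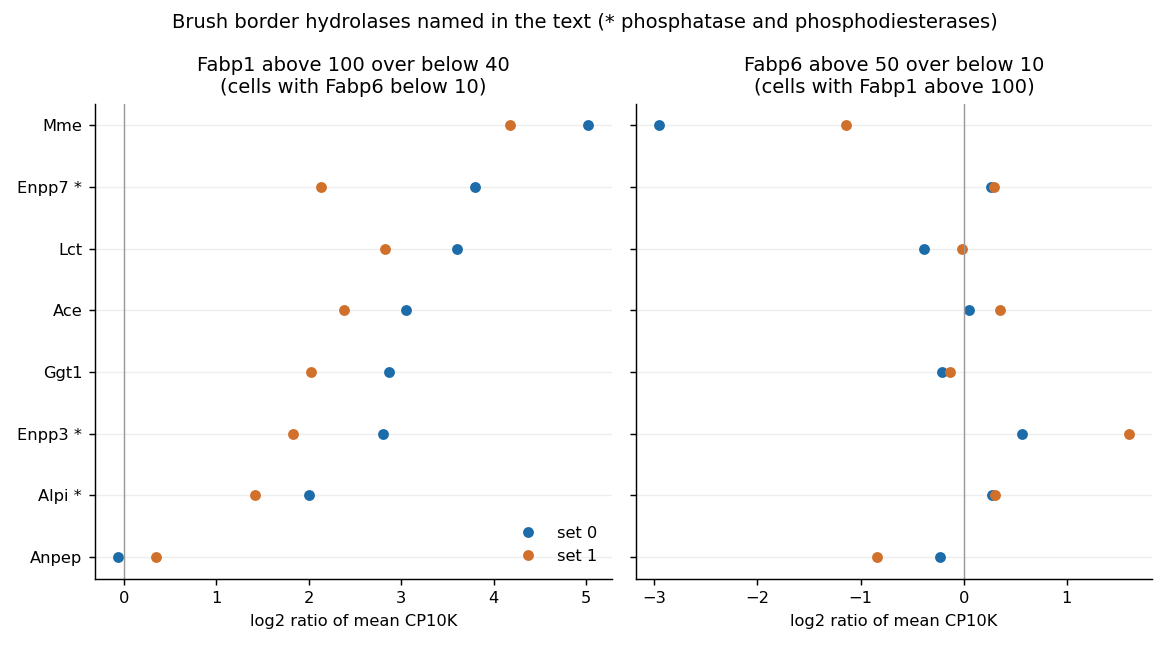
Log2 ratios of mean CP10K (x axes, 0.01 added) of 3 members (marked with an asterisk) and 5 other brush border hydrolases past 0.2 CP10K in set 0 (y axis), by Fabp1 (left) and Fabp6 (right), for set 0 (blue) and set 1 (orange); Enpp7 is under the minimum in set 1. The members lie to the right by Fabp1 with Mme, Lct, Ace and Ggt1, and their plotted values are at or above 0.26 by Fabp6. For Enpp7 in set 1 by Fabp6, the high group holds 4 UMIs, and the interval of the summed log2 ratio is -1.58 to 1.67.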

How the data were processed

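Sorted epithelial cells of 1 Control and 1 Tet3 knockout library were measured together in 1 table. The authors deposited a linear signal per cell and gene, scaled to 10000 per cell. Tools named in the submitters' processing notes are alevin, Salmon 0.14.1 and Scanpy 1.6.0, with the builds GRCm38 and mm10 and no settings. The samples' labels give no map from barcode suffix to library, and groups of cells were cut on Fabp1 and Fabp6.

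Depth was recovered by setting 1 UMI to the commonest value above 0 in each cell. Multiples of it were whole within 0.01 for 94.9% of values in the median cell and 84.3% in the lowest, and totals ran from 1153 to 250630 UMIs. Computed from these were mean CP10K, summed UMIs, and shares after thinning to 8000 UMIs, which left out 34 and 44 shallower cells. Log2 ratios add 0.01 CP10K. The procedure was tested on simulated data. Leiden clustering (Scanpy 1.11.5, igraph 0.11.9, 2000 variable genes, 30 components, 15 neighbours, resolution 1) left out the 4 members. No doublet was removed.

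Named genes are the members, the 5 genes most like each of them and up to 4 of the most abundant genes of each list. Asah2, Mme, Ggt1, Pgap2, Pigh, Dpep1, Ceacam1, Cdx1, Klf4 and Csf1r were singled out after their values were seen. Some genes of the lists are not reported here by name. The members and lists were chosen with earlier results of these data known.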

Additional observations from a re-analysis of the deposited data

How the results depend on the processing

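Of the alternatives to the reported values that answer a comparison, 132 moved by less than the counting interval (counts of genes by less than 1.5 times), 70 moved further and 1 changed sign. The causes were not tested. The sign changed for Enpp7 by Fabp6 in set 1, at -0.071 without cells holding Mki67 or Top2a, where the high group had 4 UMIs before those cells were left out. No paired analysis was possible because each genotype has 1 library and no cell is mapped to it.

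Mean levels moved with the total used. Without mitochondrial, ribosomal protein and haemoglobin genes in the total, levels in set 0 and set 1 were 3.20 and 2.68 CP10K for Alpi, 0.969 and 0.401 CP10K for Enpp3, and 0.223 and 0.0397 CP10K for Enpp7. With at least 1000 UMIs, 500 genes and at most 10% mitochondrial signal, which left out 1753 of the cells used, they were 2.51 and 1.97, 0.771 and 0.276, and 0.178 and 0.0287 CP10K. With shared barcodes kept, set 1 had 2.18, 0.376 and 0.0512 CP10K, and with them out of both sets Enpp3 in set 0 had 0.831 CP10K. From summed UMIs, set 1 had 2.18 per 10000 for Alpi and 0.358 for Enpp3.

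Shares of cells in set 0 and set 1 were 90.1% and 89.4% (Alpi), 49.96% and 28.5% (Enpp3) and 27.7% and 6.60% (Enpp7) without thinning, and 57.8% and 52.2%, 22.3% and 10.5%, and 6.98% and 1.21% at 4000 UMIs.

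By Fabp1, the log2 ratios kept their direction under every alternative run. With a pseudocount of 0.1 CP10K they were 1.89 and 1.34 (Alpi), 2.24 and 1.32 (Enpp3) and 1.79 and 0.53 (Enpp7) in set 0 and set 1. Summed UMIs gave 1.36 (Alpi, set 1), 3.33 and 2.03 (Enpp3) and 5.04 and 3.83 (Enpp7). Without cells holding Mki67 or Top2a, Alpi had 1.53 and 1.13 and Enpp3 had 2.12 and 1.45. The reduced total gave Alpi 1.86 and 1.33, and shared barcodes out of both sets gave Alpi 2.10 in set 0. Without clusters 5, 6 and 15, chosen after seeing the data, Enpp3 had 3.24 and 2.07. By Fabp6, Enpp3 had 0.64 in set 0 with lower group limits and 2.14 in set 1 under the stricter filter. At Leiden resolution 0.5, the highest cluster means were 4.29 CP10K for Alpi and 2.03 CP10K for Enpp3.

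Counts of genes past 2-fold moved with the minimum. By Fabp1, 508 genes were higher and 1064 lower in set 0, and 300 and 621 in set 1, with the minimum of 0.2 CP10K. With no minimum, 832 were higher and 2593 lower in set 0, and 519 and 1698 in set 1. With a minimum of 1 CP10K, these were 223 and 327, and 124 and 181. By Fabp6, 103 and 87 in set 0 and 212 and 185 in set 1 became 288 and 252 in set 0 and 1285 and 1530 in set 1 with no minimum, and 36 and 33, and 35 and 41 at 1 CP10K. Of the 5 genes named as most like a member, a minimum of 1 CP10K shared 3 for Alpi, 1 for Enpp3 and 1 for Enpp7, and a pseudocount of 0.1 CP10K shared 5, 4 and 2.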
